A study of Caenorhabditis elegans with 4 samples.

Results

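The col genes are the numbered family of nematode cuticle collagens. In the deposited count table, 156 of 20392 gene identifiers carried a symbol made of col- and a number, and all 156 are described here. RNA was sequenced from synchronised first-stage (L1) larvae of Caenorhabditis elegans in 4 libraries. The met-1 mutant mes-4(RNAi) larvae came from strain GW1183, which is homozygous mutant for the histone H3K36 methyltransferase gene met-1, and were raised on bacteria that deliver RNAi against mes-4, a second H3K36 methyltransferase gene. The wild type larvae were strain N2 raised on the empty RNAi vector L4440. Each group had 2 libraries, described by the series text as independent biological replicates. In each group the mothers had fed on the same bacteria as their larvae, and the larvae had hatched without food for 18 h and then fed for 2 h 30 min. For all 4 libraries the labels give 60 to 65 h for the parents and a temperature of 20 °C. The groups differ in strain and in RNAi at once, so the part of each cannot be told apart, and the series title, not a measurement, states that H3K36 methylation was depleted.

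Library totals ranged from 29081819 to 35106597 counts, so that a gene at 1 CPM, the count scaled to library size, rested on 29 reads in the smallest library, a counting error of 18.5%. The transcript of met-1 was at 115 and 111 CPM in met-1 mutant mes-4(RNAi) larvae, against 172 and 165 CPM in wild type. For mes-4 the values were 26.2 and 28.3 CPM in met-1 mutant mes-4(RNAi) larvae, against 34.3 and 37.4 CPM in wild type. The groups did not overlap for either gene. The same separation, with met-1 mutant mes-4(RNAi) larvae lower, held for 25.8% of all genes of at least 1 CPM in both wild type libraries. The log2 fold change was -0.57 for met-1, with an adjusted p of 0.111 by edgeR and 0.0039 by DESeq2. For mes-4 it was -0.39, with an adjusted p of 0.267 by edgeR and 0.337 by DESeq2, so that neither test called mes-4. Markers of the epidermis, the tissue that makes the cuticle, were present in all libraries, with a summed level over 7 genes of 522 and 459 CPM in met-1 mutant mes-4(RNAi) larvae, against 530.0 and 510.2 CPM in wild type. Most of this sum was ajm-1, at 365 and 286 CPM in met-1 mutant mes-4(RNAi) larvae, against 380.2 and 322 CPM in wild type. The sum hides differences between single markers. In both groups ajm-1, dpy-7 and wrt-2 were lower in replicate 2, while elt-3, lin-26, nhr-23 and nhr-25 were higher.

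The cuticle is an extracellular coat of cross-linked collagen that the epidermis secretes anew before each molt. Each cuticle collagen is a short protein of Gly-X-Y repeats that assembles into trimers, is hydroxylated and cut in the secretory pathway, and is then linked to its neighbours by tyrosine bridges. Within a larval stage, different collagens are known to be transcribed in waves, some early and some shortly before the molt, and other members are restricted to the dauer larva or the adult.

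The first question was which col genes L1 larvae express. At least 1 CPM in both wild type libraries was found for 45 members (28.8%), called expressed here. Another 32 (20.5%) had 3 counts or fewer in each of the 4 libraries and are called silent, and the remaining 79 lay in between and are called low. Over all genes in the table, 59.7% were expressed and 15.0% silent by the same rules. The family as a whole made up 0.242% and 0.378% of the counts in met-1 mutant mes-4(RNAi) libraries, against 0.169% and 0.224% in wild type.

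A few genes supplied most of this RNA. The 10 members with the highest wild type level per kb of gene model held 77.3% and 82.3% of the col CPM in met-1 mutant mes-4(RNAi) larvae, against 77.9% and 84.5% in wild type. The leading gene was col-10 (WBGene00000599, chromosome V), whose promoter is widely used to express transgenes in the epidermis. Its level per kb was 490.1 CPM in met-1 mutant mes-4(RNAi) larvae and 315 CPM in wild type (group means). In wild type it was followed by col-166 (300.5 CPM per kb), col-125 (257) and col-144 (233), and then by col-39 (102), col-103 (86.8), col-42 (78.1), col-107 (77.6), col-98 (75.9) and col-80 (58.3). The order among neighbours is loose. The wild type replicates of col-10 were at 217 and 412 CPM per kb, and this range overlapped that of col-166 (243 and 358) and that of col-125 (214 and 301).

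**Figure D1:**
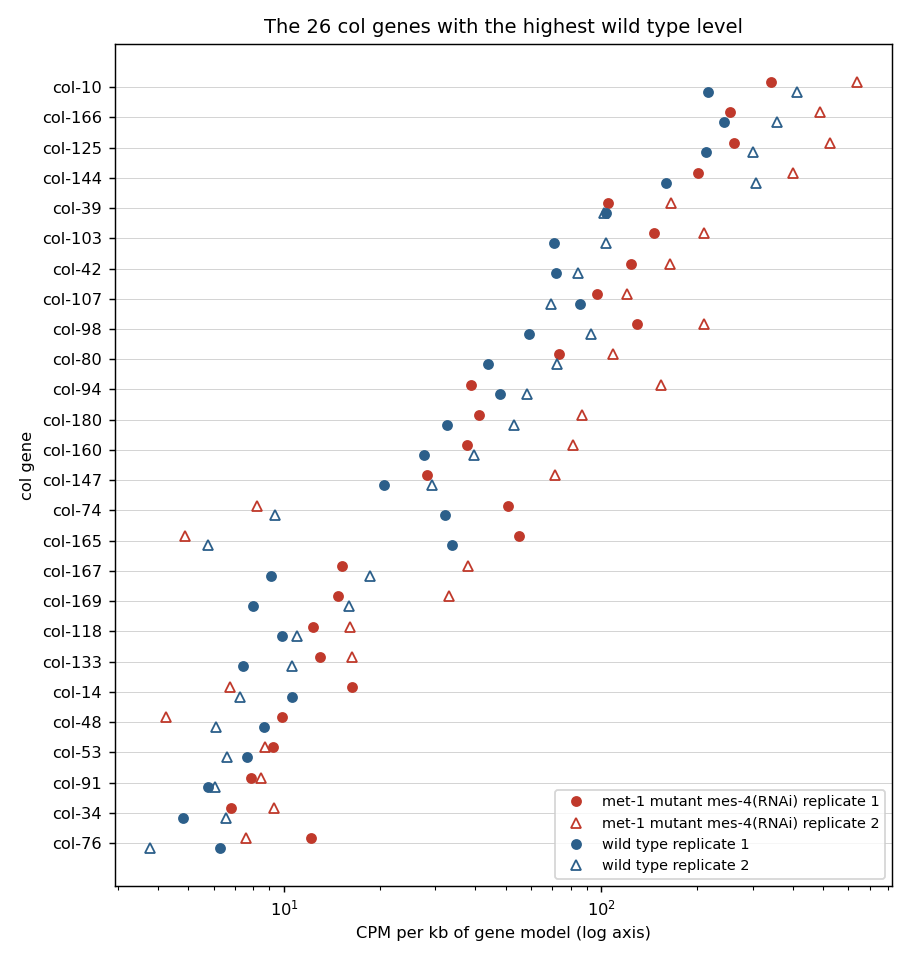
Level of the 26 col genes highest in wild type, in CPM per kb of gene model on a log axis, with 1 point per library (red for met-1 mutant mes-4(RNAi), blue for wild type, filled circles for replicate 1 and open triangles for replicate 2). Many genes, col-10 and col-144 among them, have both triangles to the right of their circles, while col-74, col-165, col-14 and col-48 have them to the left.

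Below these 10, the expressed members were col-14, col-34, col-48, col-53, col-65, col-71, col-74, col-76, col-89, col-91, col-94, col-97, col-99, col-101, col-104, col-109, col-113, col-115, col-118, col-121, col-129, col-130, col-133, col-147, col-150, col-153, col-160, col-165, col-167, col-169, col-170, col-176, col-177, col-180 and col-186. Their wild type means reached down to 1.3 CPM. Among them col-99 is not a typical cuticle collagen: it encodes a transmembrane collagen known for its part in guiding axons. It was at 9.33 and 7.35 CPM in met-1 mutant mes-4(RNAi) larvae, against 8.12 and 6.6 CPM in wild type, and the groups overlapped.

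The silent members were col-3, col-7, col-17, col-35, col-37, col-40, col-43, col-47, col-49, col-50, col-51, col-55, col-62, col-84, col-85, col-88, col-95, col-102, col-117, col-119, col-122, col-126, col-127, col-135, col-138, col-146, col-154, col-162, col-171, col-178, col-183 and col-185. For 10 of them no read was counted in any library: col-7, col-40, col-50, col-62, col-117, col-126, col-127, col-162, col-171 and col-185. A count of 0 allows a level of up to 0.0861 to 0.0989 CPM, depending on the library (3 counts, counting error only). The collagens known for other stages were at or near this limit. The adult collagen gene col-7 had 0 counts throughout, and the adult collagen gene col-19 had 2 and 5 counts in met-1 mutant mes-4(RNAi) libraries and 2 and 0 in wild type. The dauer collagen gene col-2 had 5 and 5 counts in met-1 mutant mes-4(RNAi) libraries and 0 and 1 in wild type. The tandem genes col-12 and col-13, which are nearly identical in sequence, were both low. For col-12 there were 18 and 28 counts in met-1 mutant mes-4(RNAi) libraries, against 9 and 10 in wild type, and for col-13 there were 4 and 3 in met-1 mutant mes-4(RNAi) libraries, against 0 and 0 in wild type. Reads may have been shared or lost between those tandem copies, since the counting rule is not given in the sources used here.

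The classes were also counted by chromosome, without the shares over all genes of each chromosome, so these counts are a description. Chromosome IV carried the most members, 41 of 156 (26.3%, against 16.3% of all genes). With 16 expressed among these 41, it also had the largest number of expressed members. Chromosome I had 3 expressed and 8 silent members among 21. On chromosome V 7 of 31 members were expressed, on X 9 of 27, on II 5 of 24 and on III 5 of 12.

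**Figure D2:**
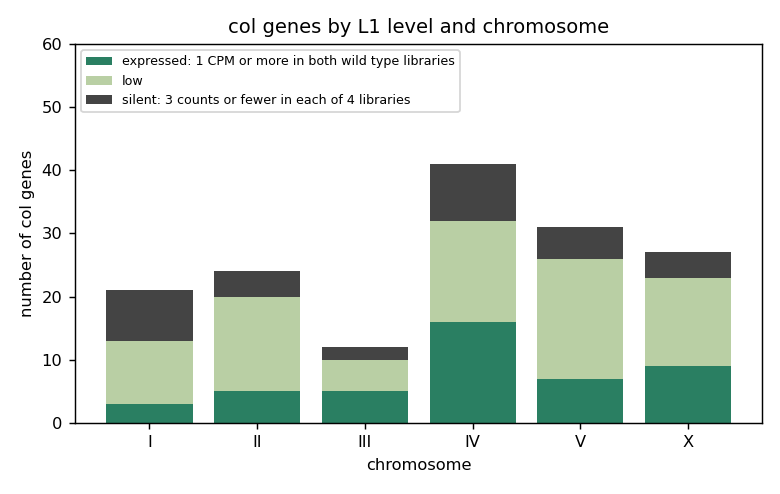
Number of col genes on each chromosome, stacked by class: expressed (at least 1 CPM in both wild type libraries), low, and silent (3 counts or fewer in each of the 4 libraries). Chromosome IV has the tallest bar, with 41 genes and 16 expressed, and chromosome I has 3 expressed among 21.

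Genomic neighbours could differ in class. In the WBcel235 annotation, 26 pairs of col genes were next to each other among protein-coding genes. Both genes were expressed in 2 of these pairs, 1 of the 2 genes in 10, and neither in 14. Of all members 28.8% were expressed, and no share for unlinked pairs was computed, so these counts are a description. On chromosome V, col-145 lies between col-144 and col-10. It was at 0.214 CPM in wild type, against 227 CPM for col-144 and 303 CPM for col-10 (group means per gene, on gene models of 901, 974 and 963 bases). On chromosome X the run from col-167 to col-171 was mixed: col-167, col-169 and col-170 were expressed, col-168 was low and col-171 silent.

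The second question was how far the libraries of replicate number 1 and number 2 differed. Collagens split into one set that was higher in replicate 2 of both groups and another that was lower. The replicate difference was larger than the group difference for 25 of the 45 expressed members, close to the 50.5% of all genes expressed in wild type. Over the 45 expressed members, the median size of the difference on the log2 scale was 0.75 between replicate numbers and 0.51 between groups, against 0.19 and 0.19 over all 12180 genes expressed in wild type by the same rule. A test of replicate number (edgeR quasi-likelihood fit with group and replicate, adjusted over 15008 genes) called 15 expressed members higher in replicate 2 and 14 lower. The same test called 9.01% of all expressed genes higher and 10.1% lower. Over the 82 members that passed the filter on low counts, 19 were called higher and 17 lower in replicate 2, beside 7.61% and 10.4% of all tested genes. This model holds both terms, whereas the group comparison further on was fitted without a replicate term, so the 2 sets of counts come from unlike models. The labels do not say that a replicate number marks a shared culture, day or library preparation, and whether it does was not tested.

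Several of the most abundant collagens, col-10, col-166, col-144, col-103, col-98 and col-80, were higher in replicate 2 of both groups by at least 0.5 (log2), while col-125, col-39, col-42 and col-107 were not. The limit was narrowly missed by col-125, at 1.01 in met-1 mutant mes-4(RNAi) larvae and 0.49 in wild type. The test of replicate number called col-125 (0.75, edgeR adjusted p = 0.00507) and col-42 (0.32, edgeR adjusted p = 0.0255) higher in replicate 2, but not col-39 or col-107. The level of col-10 was 329 and 615 CPM in replicates 1 and 2 of met-1 mutant mes-4(RNAi) larvae, against 209 and 397 CPM in those of wild type. Replicate 2 was the higher library in both groups, and the wild type replicate 2 lay above the met-1 mutant mes-4(RNAi) replicate 1, so that the groups overlapped. The fitted difference of replicate 2 over 1 was 0.91 (log2, SE 0.08, edgeR adjusted p = 4.54e-04). For col-144 the levels were 196 and 391 CPM in met-1 mutant mes-4(RNAi) larvae, against 156 and 298 CPM in wild type, with a replicate difference of 0.97 (edgeR adjusted p = 3.76e-04). The same arrangement held for col-167, at 16.3 and 40.4 CPM in met-1 mutant mes-4(RNAi) larvae, against 9.74 and 19.8 CPM in wild type, and for its near neighbour col-169, at 14.3 and 32.1 CPM in met-1 mutant mes-4(RNAi) larvae, against 7.73 and 15.5 CPM in wild type. For col-147 the values were 26.3 and 66.5 CPM in met-1 mutant mes-4(RNAi) larvae, against 19.3 and 27.3 CPM in wild type. The replicate differences of these last genes were 1.18, 1.09 and 0.93 (log2), with edgeR adjusted p of 5.71e-04, 8.06e-04 and 0.00923.

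The opposite set held moderately expressed genes with larger differences. The level of col-165 (chromosome X) was 57.8 and 5.14 CPM in replicates 1 and 2 of met-1 mutant mes-4(RNAi) larvae, against 35.5 and 6.06 CPM in those of wild type. Both replicates 1 were several times as high as both replicates 2 while the groups overlapped, and the fitted log2 difference of replicate 2 over 1 was -3.03 (SE 0.20, edgeR adjusted p = 2.43e-04). The level of col-74 (chromosome II) was 55.4 and 8.96 CPM in met-1 mutant mes-4(RNAi) larvae, against 35 and 10.2 CPM in wild type, with a replicate difference of -2.21 (edgeR adjusted p = 4.19e-04). For col-97 the values were 8.67 and 2.67 CPM in met-1 mutant mes-4(RNAi) larvae, against 5.69 and 3.89 CPM in wild type (-1.12, edgeR adjusted p = 0.0234). For col-14 they were 17.6 and 7.26 CPM in met-1 mutant mes-4(RNAi) larvae, against 11.4 and 7.82 CPM in wild type (-0.92, edgeR adjusted p = 0.0117). In each of these genes the met-1 mutant mes-4(RNAi) replicates lay further apart than the wild type replicates and enclosed them.

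With a limit of 0.5 on the log2 scale in both groups, set after the values were seen, 13 of the 45 expressed members were higher in replicate 2, 14 were lower and 18 were neither. Of all genes expressed in wild type, 1.94% were higher and 5.75% lower by this limit. The higher set was col-10, col-80, col-98, col-103, col-144, col-147, col-160, col-166, col-167, col-169, col-170, col-180 and col-186. The lower set was col-14, col-48, col-65, col-74, col-76, col-97, col-104, col-109, col-113, col-115, col-121, col-130, col-153 and col-165. Over the 82 tested members, 18 were higher and 21 lower by the same limit, against 2.56% and 9.20% of all tested genes. Of the 19 tested members on chromosome V, 7 were higher in replicate 2 and 2 lower. The numbers were 6 and 3 of 14 on X, and 2 and 8 of 22 on IV. Shares over all genes of each chromosome were not computed, so these counts are a description only. The summed level of every member of the higher set, low ones included, was 1370 and 2531 CPM in met-1 mutant mes-4(RNAi) replicates 1 and 2, against 954 and 1593 CPM in wild type. That of the lower set was 232 and 60.0 CPM in met-1 mutant mes-4(RNAi) larvae, against 146 and 56.9 CPM in wild type. Differences in the 2 groups had the same sign for 39 of the 45 expressed members, against 74.8% of all expressed genes. They were larger in met-1 mutant mes-4(RNAi) larvae than in wild type for 35 of the 45, against 52.7% of all expressed genes. Among smaller members the same split was visible in col-170, at 3.07 and 10.9 CPM in met-1 mutant mes-4(RNAi) larvae, against 1.32 and 3.57 CPM in wild type, and in the opposite direction in col-65, at 11.3 and 1.55 CPM in met-1 mutant mes-4(RNAi) larvae, against 5.66 and 1.08 CPM in wild type. An exception to the shared pattern was col-94, at 37.5 and 149 CPM in met-1 mutant mes-4(RNAi) larvae, against 46.4 and 56.5 CPM in wild type. Its high value came from 1 library, the met-1 mutant mes-4(RNAi) replicate 2. The test of replicate number still called col-94 higher in replicate 2 (1.14, edgeR adjusted p = 0.0407).

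**Figure D3:**
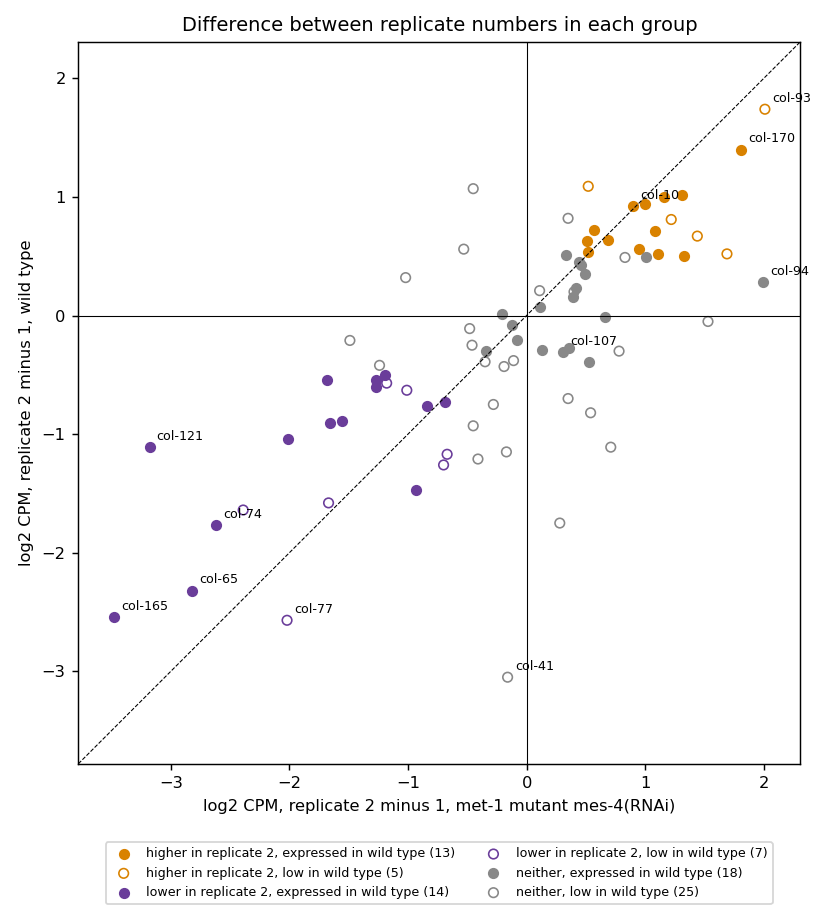
Log2 CPM of replicate 2 minus replicate 1 in met-1 mutant mes-4(RNAi) larvae (horizontal) and in wild type (vertical) for the 82 tested col genes, with filled points for members expressed in wild type, open points for low ones, and the dashed line where both differences are equal. Orange points are higher and purple points lower by at least 0.5 in both groups; col-165 sits at -3.48 and -2.54, and col-170 at 1.81 and 1.40.

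Other genes of the cuticle and epidermis also differed between replicate numbers. Of 21 cuticle collagen genes named for mutant body shape, such as those of the Dpy and Sqt classes, 19 were found and 13 tested. The test of replicate number called 7 of the 13 lower in replicate 2 and 0 higher, against 10.4% and 7.61% of all tested genes. For sqt-3, an essential cuticle collagen gene, the values were 80.9 and 7.52 CPM in met-1 mutant mes-4(RNAi) larvae, against 49.6 and 10.6 CPM in wild type. Those of dpy-14 were 127 and 8.53 CPM in met-1 mutant mes-4(RNAi) larvae, against 75.5 and 14.4 CPM in wild type, and dpy-17 was also lower in both replicates 2. Like col-165 and col-74, and unlike col-10, these 3 genes were lower in replicate 2 of both groups. The edgeR adjusted p was 4.35e-04 for sqt-3, 5.67e-04 for dpy-14 and 0.00113 for dpy-17.

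Among 17 genes that modify or cut collagens, 15 were tested, and the test of replicate number called 1 lower and 1 higher. The lower one was dpy-31, which encodes the astacin protease that trims cuticle procollagens, at 111 and 63.5 CPM in met-1 mutant mes-4(RNAi) larvae, against 109 and 63.5 CPM in wild type (edgeR adjusted p = 5.67e-04). Of 16 tested regulators of molting and epidermal fate, 6 were called higher and 1 lower in replicate 2. They included nhr-23, a nuclear receptor gene needed for molting, at 8.24 and 11.7 CPM in met-1 mutant mes-4(RNAi) larvae, against 6.86 and 12.4 CPM in wild type. The membrane-bound transcription factor gene myrf-1 was at 61.2 and 88.8 CPM in met-1 mutant mes-4(RNAi) larvae, against 52.8 and 95.5 CPM in wild type. The basement membrane collagen genes emb-9 and let-2, which lie outside the cuticle, were not called in either direction, with replicate differences of 0.16 and 0.21 (log2). Of 7 epidermis markers 4 were called higher and 3 lower in replicate 2, but the 4 higher ones (nhr-23, nhr-25, elt-3 and lin-26) are also among the 6 regulators, and dpy-7 is also among the body-shape collagens. Of 6 body wall muscle markers 4 were called higher, and the shares of all tested genes were those given above (7.61% higher, 10.4% lower). The part of these tissues in the replicate difference was not tested.

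The third question was how the groups differed. Collagens tended to be higher in met-1 mutant mes-4(RNAi) larvae, and 7 passed DESeq2: col-42, col-98, col-103, col-101, col-150, col-142 and col-96. "Rose" is used below of DESeq2 calls only. The summed level of all 156 members was 2325 and 3812 CPM in met-1 mutant mes-4(RNAi) larvae, against 1689 and 2327 CPM in wild type, so that the replicate 2 of wild type was level with the replicate 1 of met-1 mutant mes-4(RNAi) larvae. In bulk RNA, more epidermal cells and more collagen RNA per cell cannot be told apart.

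By edgeR's quasi-likelihood test none of the 82 tested members was called (0 higher, 0 lower, smallest adjusted p = 0.101), and none of all 15008 genes (0 higher, 0 lower, percent called 0, smallest adjusted p = 0.0556). At an unadjusted p under 0.05, edgeR counted 18 members higher and 0 lower, beside 7.74% and 6.82% of all tested genes. DESeq2 on the same counts called 7 members higher and 0 lower, where it called 2.45% of all tested genes higher and 1.92% lower. Of the 82 tested members, 14 reached the level of the filter on low counts in both met-1 mutant mes-4(RNAi) libraries but not in both wild type ones. The counts above are therefore not those of a list free of selection. The 45 expressed members were chosen on wild type levels only. Of these, 5 rose and 0 fell by DESeq2, against 1.90% higher and 2.35% lower of all expressed genes. The groups did not overlap, with met-1 mutant mes-4(RNAi) larvae higher, for 18 of the 45, against 19% of expressed genes, and with them lower for 0 of the 45, against 25.8%. The median log2 fold change over the 45 was 0.51, against -0.02 over all expressed genes, and 41 of the 45 had a value above 0, against 46.1% of all expressed genes. Over the 82 tested members the groups did not overlap for 31 with met-1 mutant mes-4(RNAi) larvae higher and for 0 with them lower, against 22.7% and 22.2% of all tested genes.

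The 3 abundant collagens that rose shared a level near the top of the family. The level of col-103 (WBGene00000677, chromosome IV) was 171 and 246 CPM in met-1 mutant mes-4(RNAi) larvae, against 82.8 and 120.5 CPM in wild type. Both met-1 mutant mes-4(RNAi) libraries lay above both wild type libraries, and replicate 2 was the higher one in each group. The log2 fold change was 1.04 (SE 0.26), with an adjusted p of 0.182 by edgeR and 0.00431 by DESeq2. The level of col-98 (WBGene00000673, chromosome III) was 145 and 234 CPM in met-1 mutant mes-4(RNAi) larvae, against 66.3 and 103 CPM in wild type, a log2 fold change of 1.16 (SE 0.32), with an adjusted p of 0.204 by edgeR and 0.00566 by DESeq2. The level of col-42 (WBGene00013489, chromosome V) was 130.4 and 174 CPM in met-1 mutant mes-4(RNAi) larvae, against 75.6 and 88.7 CPM in wild type, a log2 fold change of 0.89 (SE 0.18), with an adjusted p of 0.131 by edgeR and 0.00175 by DESeq2. As with col-103, the groups of col-98 and col-42 did not overlap.

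The other collagens that rose were at a low level. The level of col-101 (WBGene00000675, chromosome IV) was 4.88 and 7.06 CPM in met-1 mutant mes-4(RNAi) larvae, against 1.98 and 1.5 CPM in wild type, a log2 fold change of 1.78 (SE 0.31), with an adjusted p of 0.102 by edgeR and 0.00171 by DESeq2. The level of col-150 (WBGene00000723, chromosome V) was 5.7 and 4.91 CPM in met-1 mutant mes-4(RNAi) larvae, against 2.19 and 2.2 CPM in wild type, a log2 fold change of 1.27 (SE 0.23), with an adjusted p of 0.11 by edgeR and 0.0208 by DESeq2. Neither was called for replicate number, with fitted differences of 0.18 for col-101 and -0.12 for col-150 (log2). The level of col-96 (WBGene00000671, chromosome III) rested on 64 and 53 counts in met-1 mutant mes-4(RNAi) libraries, against 13 and 10 in wild type, a log2 fold change of 2.34 (SE 0.40), with an adjusted p of 0.101 by edgeR and 0.0232 by DESeq2. The level of col-142 (WBGene00000715, chromosome V) rested on 38 and 146 counts in met-1 mutant mes-4(RNAi) libraries, against 9 and 13 in wild type, a log2 fold change of 2.99 (SE 0.71), with an adjusted p of 0.168 by edgeR and 0.00833 by DESeq2. This gene is one of the 14 that reached the filter's level in both met-1 mutant mes-4(RNAi) libraries but not in both wild type ones. Its place among the tested genes thus depended on its level in met-1 mutant mes-4(RNAi) larvae, and its call is a description. Most of the col-142 reads came from the replicate 2 of met-1 mutant mes-4(RNAi) larvae. The adjacent gene col-141 did not pass either test, at 25 and 25 counts in met-1 mutant mes-4(RNAi) libraries, against 5 and 3 in wild type. It too is one of these 14 genes, so its values are a description. Both genes are known as targets of the BMP-like DBL-1 pathway that sets body size, and the part of that pathway in these values was not tested.

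The other low members that could be tested rested on few reads. Of these 37 genes, 2 rose (col-96 and col-142) and 0 fell by DESeq2, near the 4.81% higher and 0.0707% lower among all tested genes not expressed in wild type. Among the more abundant was col-77, with 224 and 62 counts in met-1 mutant mes-4(RNAi) libraries, against 130 and 19 in wild type. It differed more between replicate numbers than between groups, and the groups overlapped. For col-93 the counts were 68 and 322 in met-1 mutant mes-4(RNAi) libraries, against 32 and 105 in wild type, so that replicate 2 was the higher one in both groups and the groups again overlapped. For col-149 they were 36 and 116 in met-1 mutant mes-4(RNAi) libraries, against 16 and 25 in wild type, with no overlap (log2 fold change 1.82, DESeq2 adjusted p = 0.209). The 74 members left out by the filter on low counts had at most 25 counts in a library (col-44), and summed to 284 and 246 counts in met-1 mutant mes-4(RNAi) libraries, against 206 and 133 in wild type.

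**Figure D4:**
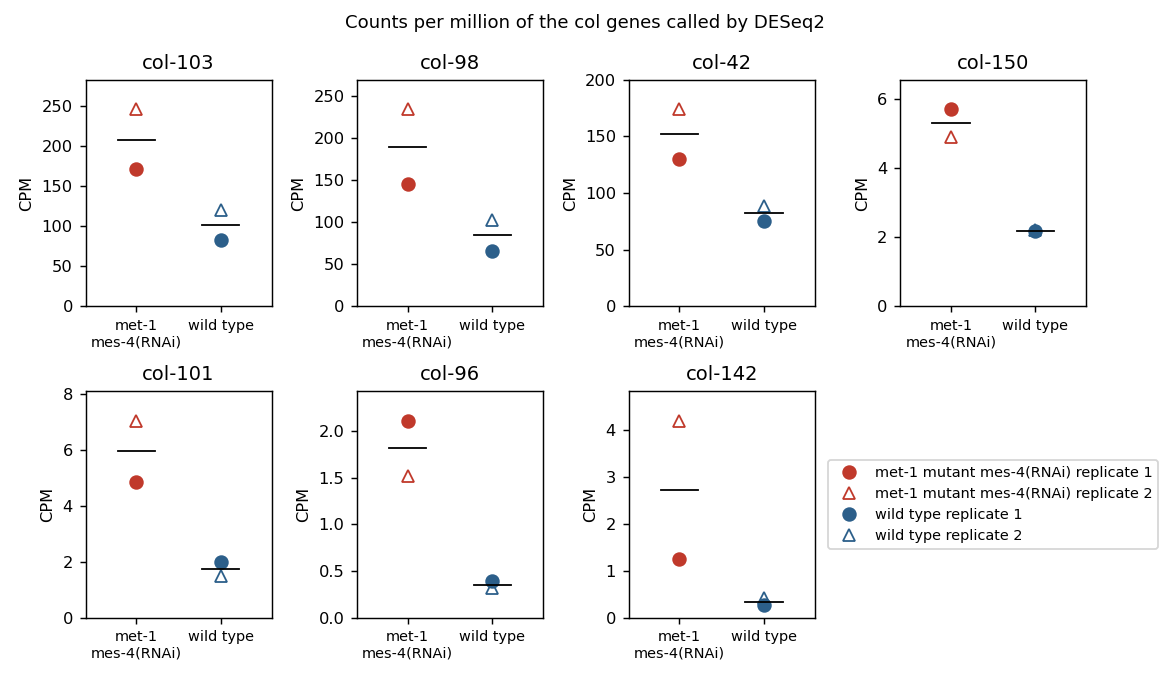
Level in CPM (axes from 0) of the 7 col genes called by DESeq2, with met-1 mutant mes-4(RNAi) larvae on the left and wild type on the right of each panel; circles are replicates 1, triangles replicates 2 and the bar is the group mean. No panel has overlapping groups, and col-142 has its met-1 mutant mes-4(RNAi) libraries at 1.25 and 4.19 CPM.

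Leaving out a library leaves 1 in its group, which is then assumed to vary like the other group. The fold changes of these 7 genes kept their sign in all 4 such fits, but the DESeq2 calls changed with the library left out. None of the 7 was called in every one of these fits, and the share of all genes called in them is not given here. The DESeq2 log2 fold changes in these fits were 0.66 to 1.08 for col-42, 0.76 to 1.51 for col-98 and 0.74 to 1.32 for col-103. They were 1.86 to 3.61 for col-142, 1.48 to 2.02 for col-101, 1.16 to 1.37 for col-150 and 2.10 to 2.56 for col-96.

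Set side by side within replicate numbers, the groups differed in another way in each of the sets. In the expressed set higher in replicate 2, all 13 members were higher in met-1 mutant mes-4(RNAi) larvae within replicates 1 (median log2 difference 0.65) and all 13 within replicates 2 (median 1.03). For col-10 the differences were 0.65 and 0.63, and for col-169 they were 0.88 and 1.05, although neither gene's groups were free of overlap. In the expressed set lower in replicate 2, 13 of 14 members were higher in met-1 mutant mes-4(RNAi) larvae within replicates 1 (median 0.64) but 3 of 14 within replicates 2 (median -0.21). Thus col-165 was at 0.70 and -0.24, and col-121 at 0.65 and -1.43. In the remaining 18 expressed members, the medians were 0.30 and 0.59, with 15 and 17 above 0. Over all 45, 31 were higher within both numbers and 2 lower within both, against 32.6% and 40.5% of all expressed genes. The sets were formed from the same libraries, so these medians are a description with no test. Matching values over all genes of the same replicate sets were not computed, so the pattern cannot be called particular to col genes. The 13 tested body-shape collagens had medians of 0.69 within replicates 1 and -0.61 within replicates 2.

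**Figure D5:**
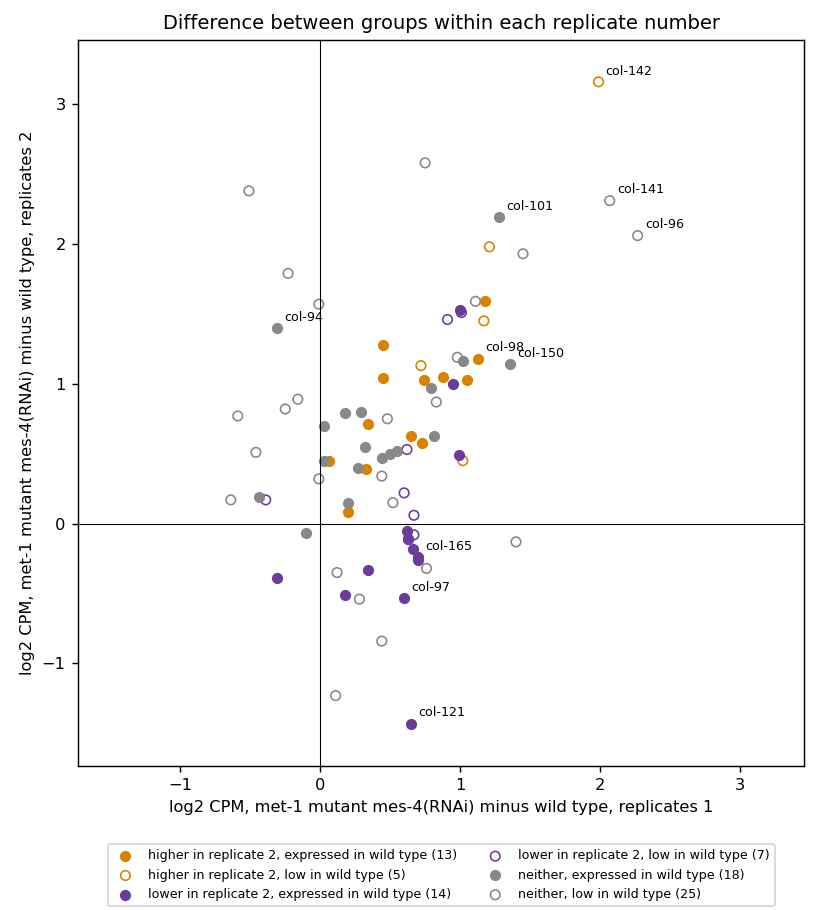
Log2 CPM of met-1 mutant mes-4(RNAi) larvae minus wild type within replicates 1 (horizontal) and within replicates 2 (vertical) for the 82 tested col genes, coloured by the difference between replicate numbers as in the legend. Orange points all lie right of and above 0, while most purple filled points lie right of 0 and below it, such as col-165 at 0.70 and -0.24.

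The remaining abundant collagens were called by neither test. Among the 10 highest, the log2 fold changes were 0.64 for col-10, 0.31 for col-166, 0.61 for col-125, 0.37 for col-144, 0.41 for col-39, 0.48 for col-107 and 0.64 for col-80. The groups did not overlap for col-39, col-107 and col-80. In col-39 the wild type replicates were close, at 108 and 107 CPM, and the met-1 mutant mes-4(RNAi) replicates were at 110.5 and 175 CPM, so that the separation rested on replicate 2. The sign of col-144 and of col-166 turned when 1 library was left out. The members of at least 5 CPM with the lowest fold changes were col-48 (-0.07), col-99 (0.18), col-97 (0.24), col-166 (0.31), col-53 (0.33) and col-14 (0.37), and the sign turned without 1 library for all of these but col-53.

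Overlapping gene models limit some values, because the strand setting of the counting is not given in the sources used here. In the WBcel235 annotation 37 of the 156 members share exon sequence with another gene, 30 of them with a gene on the opposite strand. For col-103 this partner is gst-40, a glutathione S-transferase gene, at 8.67 and 12.1 CPM in met-1 mutant mes-4(RNAi) larvae, against 7.82 and 11.9 CPM in wild type, far under the level of col-103. For col-121 the partner daf-15 was the more abundant, at 319.8 and 284 CPM in met-1 mutant mes-4(RNAi) larvae, against 379 and 352 CPM in wild type. Other expressed members also had a far more abundant partner. In wild type these partners were daf-1 for col-99 (99.1 and 97.1 CPM), F55F8.2 for col-53 (219 and 264 CPM) and rig-4 for col-115 (311 and 309.9 CPM). How many reads of such members came from the partner was not tested. For col-74 the partner was gtap-1, at 18.9 and 21.8 CPM in met-1 mutant mes-4(RNAi) larvae, against 27.9 and 29.3 CPM in wild type, without the replicate difference of col-74. The partner of col-142, T15B7.14, had at most 0.165 CPM.

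Related lists gave few calls between the groups. DESeq2 called 2.45% of all tested genes higher and 1.92% lower, so few or no calls are the usual outcome for lists this short. No call by DESeq2 was made among the 13 tested body-shape collagens (0 rose, 0 fell), whose median log2 fold change was 0.55 (0.69 within replicates 1 but -0.61 within replicates 2), the 4 basement membrane and other collagens (median -0.02), the 15 processing genes (0.08) or the 16 regulators (-0.01). Of 6 body wall muscle markers 1 rose, the myosin gene myo-3, at 603 and 1073 CPM in met-1 mutant mes-4(RNAi) larvae, against 281 and 419 CPM in wild type. The summed muscle markers were at 8612 and 10824 CPM in met-1 mutant mes-4(RNAi) larvae, against 7744 and 9113 CPM in wild type. The summed levels of the intestine markers were 1708 and 1666 CPM in met-1 mutant mes-4(RNAi) larvae, against 2025 and 1886 CPM in wild type. Pharynx markers summed to 5105 and 5717 CPM in met-1 mutant mes-4(RNAi) larvae, against 5579 and 5673 CPM in wild type, and neuron markers to 1560 and 1577 CPM in met-1 mutant mes-4(RNAi) larvae, against 1613 and 1531 CPM in wild type. Germline markers summed to 86.8 and 97.9 CPM in met-1 mutant mes-4(RNAi) larvae, against 84.3 and 80.8 CPM in wild type. No marker of the epidermis, intestine, pharynx, neurons or germline was called by DESeq2 (0 of 30), and the part of tissue makeup in the collagen differences was not tested.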

How the data were processed

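Raw gene counts, with gene model lengths beside them, and log2 values were deposited by the authors as 2 tables. As worked out from the numbers, the authors' log2 values were log2(count × library factor + 8), with factors of 0.887 to 1.07. Per the submitters' processing notes the genome build was ce10. The aligner, counter, annotation and strandedness were not given in the sources used here. Libraries were made with the ScriptSeq Complete Gold kit from 5 µg of total RNA, per the labels' protocols. Symbols for 19182 of 20392 identifiers came from a gene name table, and chromosomes and gene neighbours from the Ensembl annotation of WBcel235. That is not the authors' build, so no coordinates are printed.

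Counts were filtered with filterByExpr (15008 genes left), scaled by TMM (factors 0.962 to 1.04) and tested with edgeR 4.0.16 (quasi-likelihood, no block) and DESeq2 1.42.0 (Wald) in R 4.3.3, adjusted by Benjamini-Hochberg over all genes, threshold 0.05. Fold changes are mutant RNAi larvae over wild type, from edgeR, the SE is the log2 fold change over the square root of F, and p-values measure the spread between these libraries only. CPM uses TMM-scaled totals. Differences of log2 CPM used a prior count of 2. DESeq2 left 291 adjusted p as NA, 6 of them of col genes. The tests were tried on simulated data first. Figures used matplotlib 3.10.9.

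Named were the col genes called by either test, the 10 highest per kb, the 10 of at least 5 CPM with the largest replicate difference, the 6 of at least 5 CPM with the lowest fold change, those with a known stage or role, and in other lists the genes called or up to 3 with the lowest p. The 0.5 limit on replicate differences and other members named were chosen after their values were seen. Members and lists were chosen with earlier results of these data known.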

Additional observations from a re-analysis of the deposited data

How the results depend on the processing

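The median log2 fold change of the tested col genes, 0.56, stayed within 0.46 to 0.69 under every alternative. The tested genes include the 14 that reached the filter's level in both met-1 mutant mes-4(RNAi) libraries but not in both wild type ones. Over the expressed members, chosen on wild type levels, the median was 0.37 to 0.64, against -0.00 to 0.06 over all genes of the same fits. With a filter of 5 CPM 31 expressed members were left. Of the 26 named genes with a fold change 17 kept their sign in all fits run. Of the 45 expressed members 32 to 42 had a positive value when 1 library was left out, and 41 with RLE or library size only. The count of edgeR calls over all genes, 0 higher and 0 lower, became 2 higher with a filter of 5 CPM, 88 and 40 without a filter, 367 and 288 with DESeq2, and 0 to 31 higher and 0 to 4 lower when 1 library was left out. For col genes, edgeR made 0 calls in all of these fits, against 7 higher by DESeq2. DESeq2 called 4 members higher with a filter of 5 CPM, and its calls changed when 1 library was left out. Shares of all genes called in these DESeq2 fits are not given here. limma-voom and limma on the deposited values called 0 genes. The cause of these changes was not tested.

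The same replicate number in both groups is a shared label only, so a paired reading is a hint from the data. Replicate differences of the 2 groups correlated across 15008 genes at 0.646, and across the 82 tested col genes at 0.726 (Pearson, genes not independent). With a replicate block edgeR called 1540 genes higher (10.3%) and 1507 lower (10%), among them 31 col genes, all higher. DESeq2 with the replicate block called 23 col genes higher, the 7 unblocked calls included, and 0 lower, beside 4.64% and 4.60% of all tested genes.

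Signs turned without 1 library in col-14 (-0.40 to 0.87), col-48 (-0.79 to 0.40, with 0.19 also positive), col-74 (-1.33 to 1.64, also -0.13), col-94 (-0.47 to 1.53), col-97 (-0.84 to 0.85, and -0.01 with limma-voom), col-99 (-0.00 to 0.33), col-144 (-0.22 to 0.91, also -0.03), col-165 (-2.02 to 2.36, also -0.18) and col-166 (-0.25 to 0.70). The count of expressed members was 26 at 5 CPM in place of 45, and that of silent ones 10 at 0 counts and 63 at 10 counts in place of 32. DESeq2 called 11 members lower in replicate 2, against 17 by edgeR. The median replicate difference over the members, -0.09, was 0.11 within met-1 mutant mes-4(RNAi) larvae and -0.23 within wild type. At the smallest library 1 CPM is 29 reads, which limits the low members.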
